A study of Mus musculus with 16 samples.

Results

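miR-221-3p and miR-222-3p are the 3p-arm products of 2 microRNA hairpins that lie side by side on the mouse X chromosome. They were taken as the rows MIMAT0000669 and MIMAT0000670 of a count table with 853 mature microRNAs, and both rows were present. The table comes from small RNA sequencing of type 1 conventional dendritic cells (cDC1s), which excel at cross-presenting antigen and were sorted from the spleen of C57BL6 mice.

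There were 16 libraries in 4 groups of 4. Compound-deficient cells lacked Ire1a and Xbp1 (genotype Xbp1-Ire1 KO), and Xbp1-deficient cells lacked Xbp1 alone (genotype Xbp1 KO). Each line had a wild-type group of its own, called here the compound-line and the Xbp1-line wild type. IRE1 senses stress in the endoplasmic reticulum, splices the Xbp1 mRNA and can cut other RNAs; XBP1 is the transcription factor made from the spliced mRNA. Loss of Xbp1 alone leaves the IRE1 protein in place, so the design asks what differs with loss of XBP1 and what differs with loss of IRE1 in addition. Age, sex, the way the genes were deleted and the number of mice per library were not stated in the labels. The deleted genes are not in a table of microRNAs, so the genotypes were not checked, and neither was cDC1 identity, because only the identifiers of these 2 microRNAs were paired with names.

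MicroRNAs guide Argonaute proteins to messenger RNAs, chiefly through the seed near the 5′ end, and lower the output of those messages. miR-221 and miR-222 share a seed and hence many predicted targets, of which the cell cycle inhibitor p27Kip1 (Cdkn1b) and the receptor tyrosine kinase Kit are the best known. Both microRNAs have been reported to act in mouse bone marrow cultures on the balance between plasmacytoid and conventional dendritic cells. None of these targets was measured here.

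The mature sequences are shown because their shared 5′ end marks them as 1 family, with the seed (bases 2 to 8) in capitals.
miR-221-3p: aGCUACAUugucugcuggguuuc
miR-222-3p: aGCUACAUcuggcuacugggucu
miR-1928: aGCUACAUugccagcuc
Both members are 23 bases long. Counted from the 5′ end without gaps, they had identical bases at 11 of 23 positions. The first 8 bases matched without a break, so the seeds were the same. Past the seed, both members hold the run CUGGGU, but not at the same positions, and a count without gaps misses such a match. How far the remaining sequence differed was therefore not measured by this count. Among 1738 mature mouse entries of the RefSeq table, 3 carried this seed, and the third was miR-1928, whose row in the count table was not identified.

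The hairpins show how both mature arms are placed in their precursors, with the 3p arm in capitals (GRCm38.p6, RefSeq, minus strand).
Mir222 hairpin: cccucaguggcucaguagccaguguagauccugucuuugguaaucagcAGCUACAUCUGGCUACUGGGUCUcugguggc
Mir221 hairpin: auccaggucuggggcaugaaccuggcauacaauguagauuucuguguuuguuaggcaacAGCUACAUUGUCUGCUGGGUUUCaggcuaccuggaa
Mir222 lies at chrX:19146893-19146971 and Mir221 at chrX:19146294-19146388, with 504 bases between them. On the minus strand Mir222 comes first in the direction of transcription. In the GENCODE M21 annotation of the same build no other gene overlapped the span of the hairpins. The nearest gene was Gm14636, annotated as a processed transcript on the same strand, 10009 bases away.

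Library totals ranged from 175165 counts in compound-deficient replicate 4 to 1403393 counts in Xbp1-deficient replicate 3. They averaged 524042 ± 341425 for compound-deficient and 1065596 ± 261195 for Xbp1-deficient libraries, and 518607 ± 252471 and 825763 ± 322500 for the compound-line and the Xbp1-line wild type (SD, n = 4 each). The mean totals were thus higher in the Xbp1 line than in the compound line. These totals are sums of microRNA counts, so the depth of sequencing itself was not compared. Both members were well above the counting limit in every library, with 218 to 1894 counts of miR-221-3p and 1407 to 11597 counts of miR-222-3p.

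miR-222-3p was an abundant microRNA of these cells and miR-221-3p a moderately abundant one. By mean level, in CPM (counts scaled to a common library size) on TMM-scaled library sizes, miR-222-3p ranked 16 and miR-221-3p ranked 54 among the 255 microRNAs with enough counts to be tested. The rank of miR-222-3p stayed between 13 and 20 over the 16 libraries, and that of miR-221-3p between 49 and 63. Of all counts in a library, miR-222-3p took between 0.597% and 1.40%, with a median of 0.820%, and miR-221-3p between 0.0655% and 0.194%, with a median of 0.115%. A mature microRNA gives 1 read however long it is, and both are of the same length, but adapter ligation depends on sequence, so the distance between the 2 levels is not a measured ratio of molecules.

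Cells lacking XBP1, with or without IRE1, had higher mean levels of miR-222-3p than wild-type cells, but in neither line did the difference pass the test across all microRNAs. The level was 12449, 14829, 10291 and 7429 CPM in compound-deficient replicates 1 to 4. It was 9792, 8118, 8020 and 10891 CPM in Xbp1-deficient replicates 1 to 4. Compound-line wild-type replicates 1 to 4 stood at 9902, 6150, 5661 and 9616 CPM, and Xbp1-line wild-type replicates 4, 5, 6 and 8 at 8683, 6360, 6714 and 7325 CPM. The ranges of the deficient and wild-type libraries overlapped in both lines: 3 of 4 compound-deficient libraries lay above every compound-line wild-type library, and 2 of 4 Xbp1-deficient libraries above every Xbp1-line wild-type library. In bulk libraries such as these, more cells that hold a microRNA and more of it per cell cannot be told apart.

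miR-221-3p showed the same order of group means with smaller gaps. Compound-deficient replicates 1 to 4 stood at 2033, 1216, 1219 and 1162 CPM, so that replicate 1 was far above the other 3. Xbp1-deficient replicates 1 to 4 stood at 1215, 1233, 1199 and 1232 CPM. The level was 1210, 1440, 986 and 644 CPM in compound-line wild-type replicates 1 to 4, and 1207, 938, 852 and 987 CPM in Xbp1-line wild-type replicates 4, 5, 6 and 8. In the Xbp1 line 3 of 4 deficient libraries exceeded all wild-type libraries and the last fell just under the highest wild-type library, whereas in the compound line only replicate 1 exceeded them all.

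**Figure D1:**
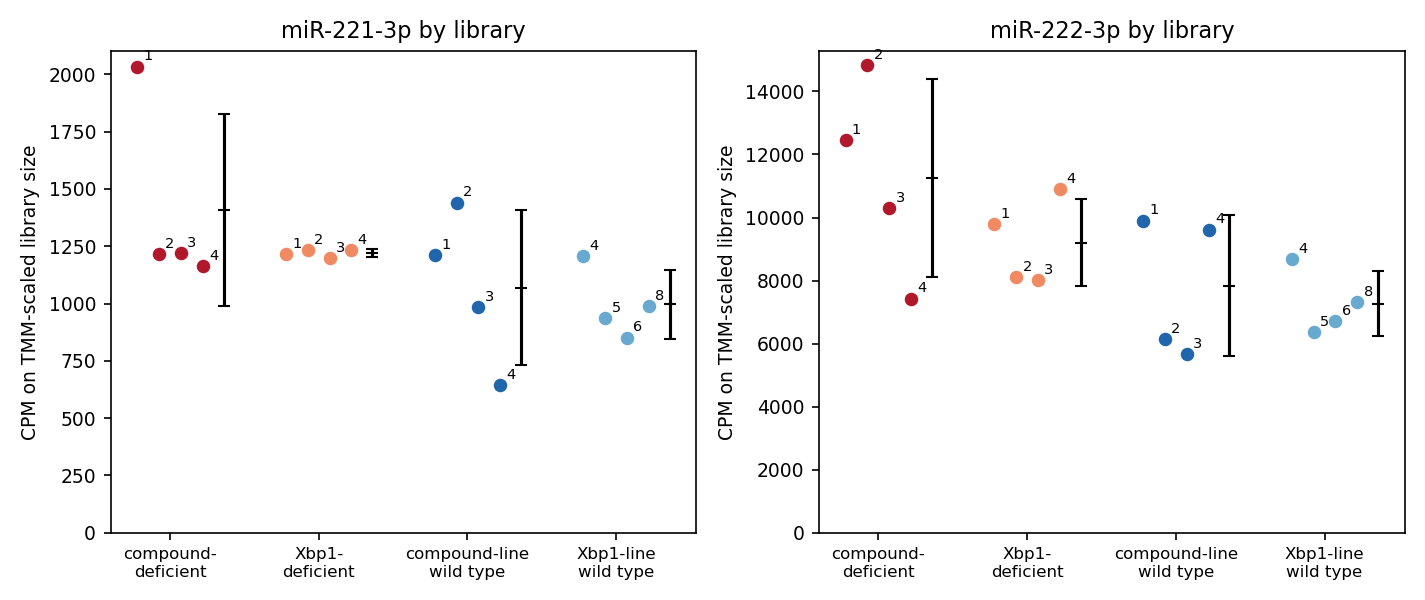
CPM on TMM-scaled library sizes (vertical axes from 0) of miR-221-3p (left) and miR-222-3p (right) in the 16 libraries; points are libraries labelled by replicate number, and the bar beside each group is the mean ± SD (n = 4). Group ranges overlap throughout, and compound-deficient replicate 1 stands apart for miR-221-3p at 2033 CPM.

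For both microRNAs the group means ran, from high to low, compound-deficient, Xbp1-deficient, compound-line wild type, Xbp1-line wild type. For miR-222-3p they were 11250 ± 3150, 9205 ± 1387, 7832 ± 2237 and 7270 ± 1022 CPM in that order (SD, n = 4 each). For miR-221-3p they were 1407 ± 418, 1220 ± 16.03, 1070 ± 339 and 996 ± 151 CPM (SD, n = 4 each). The ranges of neighbouring groups in this order overlapped for both microRNAs, and none of the neighbours that were compared directly differed in edgeR's quasi-likelihood test.

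In compound-deficient against compound-line wild-type cells, the log2 fold change of miR-222-3p was 0.52 (SE 0.21, 95% interval 0.09 to 0.96), which is 1.44-fold. The interval lay above 0 and the unadjusted edgeR p was 0.0208, but the Benjamini-Hochberg adjusted p over 255 microRNAs was 0.158, so it did not pass at 0.05. The log2 fold change of miR-221-3p was 0.40 (SE 0.21, interval −0.05 to 0.85), with an edgeR adjusted p of 0.347. Thus 0 of the 2 members were called, where 5.88% of all tested microRNAs were called and 9.8% had ranges that did not overlap. The median log2 fold change of all 255 was 0.04. The 2 members ranked 34 and 50 from the top by log2 fold change, miR-222-3p the higher.

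Single libraries weighed on these 2 values. For miR-221-3p the log2 fold change was 0.08 without compound-deficient replicate 1 and 0.16 without compound-line wild-type replicate 4. For miR-222-3p it was 0.31 without compound-deficient replicate 2 and 0.33 without compound-line wild-type replicate 3. A control of all 8 wild-type libraries brings in any difference between the lines. With it miR-222-3p passed, at 0.58 and an edgeR adjusted p of 0.0339. It also passed without the filter on low counts, at 0.51 and an edgeR adjusted p of 0.0331. With upper-quartile scaling the log2 fold change was 0.25 for miR-222-3p and 0.10 for miR-221-3p, with edgeR adjusted p of 0.572 and 0.858.

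In Xbp1-deficient against Xbp1-line wild-type cells, the log2 fold change was 0.34 (SE 0.21, 95% interval −0.09 to 0.77) for miR-222-3p and 0.29 (SE 0.21, interval −0.15 to 0.74) for miR-221-3p. The edgeR adjusted p was 0.472 for miR-222-3p and 0.603 for miR-221-3p. Again 0 of 2 were called, where 2.35% of all tested microRNAs were called and 11.8% had ranges that did not overlap, and the median over all 255 was −0.06. The intervals reach up to 1.71-fold for miR-222-3p and 1.67-fold for miR-221-3p, so these libraries do not show that the levels were alike. Without Xbp1-line wild-type replicate 4, the highest of its group for both, the log2 fold change was 0.44 for miR-221-3p, which did not pass either, with an edgeR adjusted p of 0.404.

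**Figure D2:**
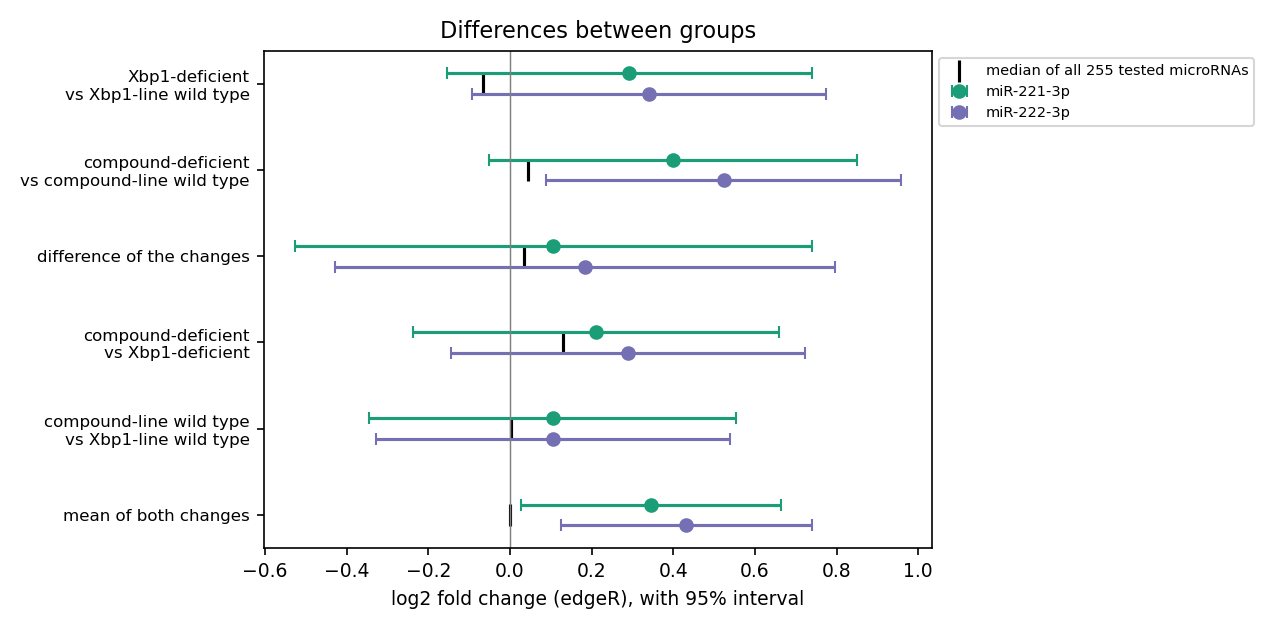
log2 fold change from edgeR (horizontal axis) of miR-221-3p and miR-222-3p in each comparison, with 95% intervals from all 16 libraries; the black tick is the median of the 255 tested microRNAs. All points lie right of 0, but comparisons share libraries, so their signs are not independent. In the 5 comparisons of the design only the interval of miR-222-3p in compound-deficient against wild-type cells, 0.09 to 0.96, leaves out 0. The mean of both changes was added after these values were seen. Its intervals leave out 0 for both members, at 0.13 to 0.74 for miR-222-3p and 0.03 to 0.66 for miR-221-3p.

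Whether loss of IRE1 in addition to XBP1 was tied to another change than loss of XBP1 alone was tested as the difference of both changes. It was 0.18 (SE 0.29, 95% interval −0.43 to 0.80) for miR-222-3p and 0.11 (SE 0.30, interval −0.53 to 0.74) for miR-221-3p on the log2 scale, with edgeR adjusted p of 0.908 and 0.989. In this comparison 0% of all tested microRNAs were called in edgeR, with 26 at an unadjusted p under 0.05. DESeq2 and limma voom also called 0. Both differences turned negative with upper-quartile scaling, which moved the median of all microRNAs by −0.39, and with single libraries left out, where 11 of 16 fits kept the sign for miR-221-3p (lowest value −0.24) and 13 of 16 for miR-222-3p (lowest value −0.059).

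Set directly against Xbp1-deficient cells, compound-deficient cells stood at 0.29 (SE 0.21, 95% interval −0.14 to 0.72) on the log2 scale for miR-222-3p and 0.21 (SE 0.21, interval −0.24 to 0.66) for miR-221-3p. The edgeR adjusted p was 0.506 and 0.647, and 0 of 2 were called where 7.45% of all tested microRNAs were called and 11.8% had ranges that did not overlap. The median of all 255 was itself 0.13 here, so the members stood 0.16 and 0.08 above it. Without compound-deficient replicate 1 the value of miR-221-3p was −0.12, and it was −0.033 with upper-quartile scaling. This comparison shares its libraries with those against the wild types, and it includes any difference between the lines.

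Between the wild types, the compound line was at a log2 difference of 0.11 (SE 0.21, 95% interval −0.33 to 0.54) from the Xbp1 line for miR-222-3p and 0.10 (SE 0.21, interval −0.34 to 0.55) for miR-221-3p. The edgeR adjusted p was 0.956 for both. The sign was not stable: the value was −0.025 for miR-222-3p without compound-line wild-type replicate 4, −0.097 for miR-221-3p without compound-line wild-type replicate 2, and −0.0017 for miR-222-3p without the filter. Of all tested microRNAs 0% were called in edgeR, with 24 at an unadjusted p under 0.05 and 3 called by DESeq2 and 0 by limma voom, and 4.31% had ranges that did not overlap.

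The 2 lines share no library but were scaled and fitted together, and both members had positive log2 fold changes in each. Of all 255 tested microRNAs, 115 were positive in the Xbp1 line and 134 in the compound line. How many were positive in both was not counted. The mean of the 2 changes, a comparison added after these values were seen, was 0.43 (SE 0.15, 95% interval 0.13 to 0.74) for miR-222-3p and 0.35 (SE 0.15, interval 0.03 to 0.66) for miR-221-3p. The unadjusted edgeR p was 0.00835 and 0.0344. The adjusted p was 0.0789 for miR-222-3p and 0.183 for miR-221-3p, so 0 of 2 passed, where 7.45% of all tested microRNAs passed. miR-222-3p did pass with DESeq2, at 0.45 and an adjusted p of 0.0418, and without the filter in edgeR, at an adjusted p of 0.00211.

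The scaling moved these values. Against TMM, the median log2 fold change of all tested microRNAs shifted by −0.28 with upper-quartile scaling and by −0.12 with total counts alone in the compound line, and by 0.12 and −0.10 in the Xbp1 line. Distances from that median cancel such a shift by construction. With TMM, miR-222-3p stood 0.48 above the median in the compound line and 0.41 above it in the Xbp1 line, and miR-221-3p 0.35 and 0.36 above it.

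The hairpins are neighbours on 1 strand, and the proportion of their mature products varied between libraries. The count of miR-222-3p divided by that of miR-221-3p was 6.12, 12.2, 8.45 and 6.40 in compound-deficient replicates 1 to 4, and 8.06, 6.58, 6.69 and 8.84 in Xbp1-deficient replicates 1 to 4. It was 8.18, 4.27, 5.74 and 14.9 in compound-line wild-type replicates 1 to 4, and 7.19, 6.78, 7.88 and 7.42 in Xbp1-line wild-type replicates 4, 5, 6 and 8. The ratio was narrow in the Xbp1 line and wide in the compound line, where its lowest and highest values both came from wild-type libraries.

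The counting intervals of the extremes did not overlap. The exact Clopper-Pearson 95% interval, which covers counting error only, was 3.96 to 4.61 in compound-line wild-type replicate 2 and 13.0 to 17.2 in replicate 4. Replicate 2 combined the highest wild-type level of miR-221-3p, 1440 CPM, with a low level of miR-222-3p, and replicate 4 combined the lowest level of miR-221-3p of all 16 libraries, 644 CPM, with 9616 CPM of miR-222-3p. A chi-square of the 2 counts over the 4 libraries of a group was 59.0 per degree of freedom for compound-deficient and 20.6 for Xbp1-deficient libraries, and 101 and 2.75 for the compound-line and the Xbp1-line wild type, where counting error alone gives about 1. Spread beyond counting error was general in these libraries: over all microRNAs, the smallest chi-square per degree of freedom between 2 libraries of 1 group was 18.3.

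The mean log2 ratio did not differ between genotypes beyond this spread. It was 2.99 ± 0.46 in compound-deficient cells and 2.89 ± 0.78 in the compound-line wild type (SD, n = 4 each), and the exact permutation test (two-sided) gave p = 0.8286. It was 2.90 ± 0.21 in Xbp1-deficient cells and 2.87 ± 0.09 in the Xbp1-line wild type (SD, n = 4 each), and the same exact permutation test gave p = 0.8. Between the deficient genotypes the exact permutation p was 0.8, and between the wild types 0.971. Adjusted over these 4 comparisons all were 0.971, and the smallest p that 4 against 4 libraries allow is 0.0286. The difference of 0.03 in the Xbp1 line had an SE of 0.11, and that of 0.11 in the compound line an SE of 0.45, so a shift of the ratio was much less well bounded in the compound line.

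**Figure D3:**
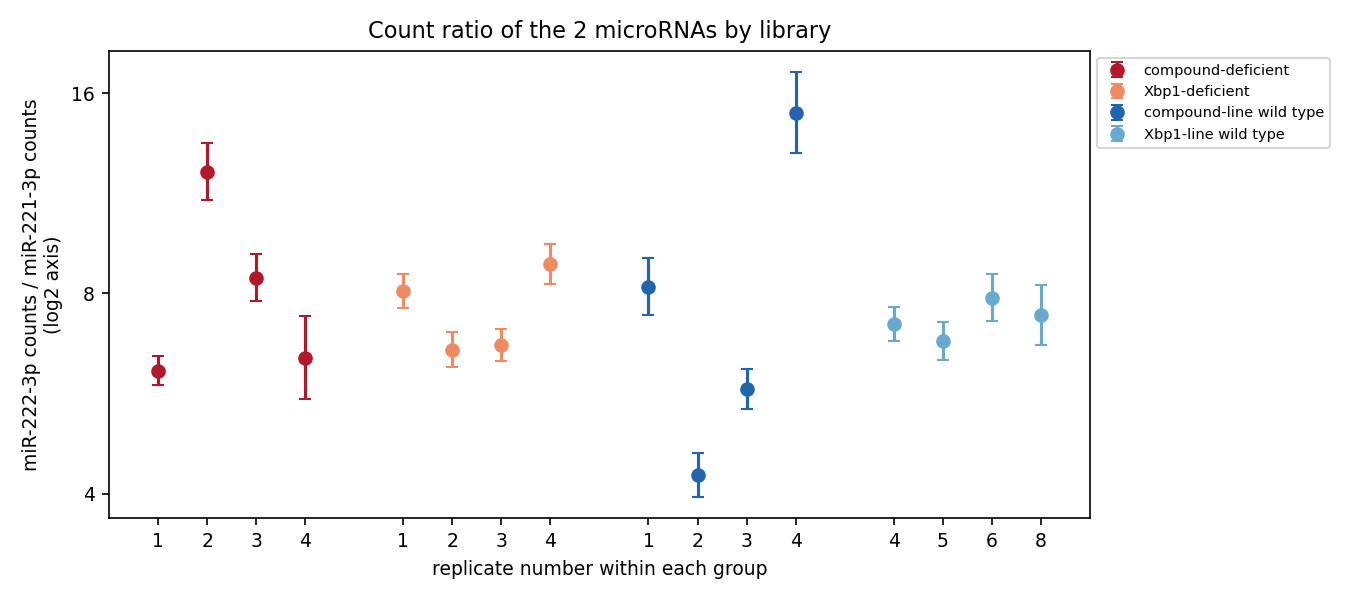
Counts of miR-222-3p divided by counts of miR-221-3p (vertical log2 axis) in each library, grouped by genotype and line with replicate numbers on the horizontal axis; bars are exact 95% counting intervals. Xbp1-line wild-type libraries lie between 6.78 and 7.88, and compound-line wild-type libraries between 4.27 and 14.9.

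Across libraries the 2 microRNAs showed a modest correlation, which 16 libraries do not bound closely. With 1 library left out, Pearson's r of log2 CPM ran from 0.18 to 0.55. Over all 16 libraries, log2 CPM values gave a Pearson's r of 0.36 (permutation p = 0.167) and a Spearman's rho of 0.50 (permutation p = 0.0492), with adjusted values of 0.333 and 0.0984 over the 2 relations computed. After the group means were taken out, r was 0.03 (permutation p = 0.925) and rho 0.13 (permutation p = 0.640). For these deviations the permutation exchanged values across groups, whose spread differed, so its p-values are rough. The SD of log2 CPM of miR-221-3p was 0.02 in Xbp1-deficient and 0.50 in compound-line wild-type libraries. Without compound-deficient replicate 1 and compound-line wild-type replicate 4, the 2 libraries farthest from the median of miR-221-3p, r was 0.44 over all values and 0.20 for the deviations.

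**Figure D4:**
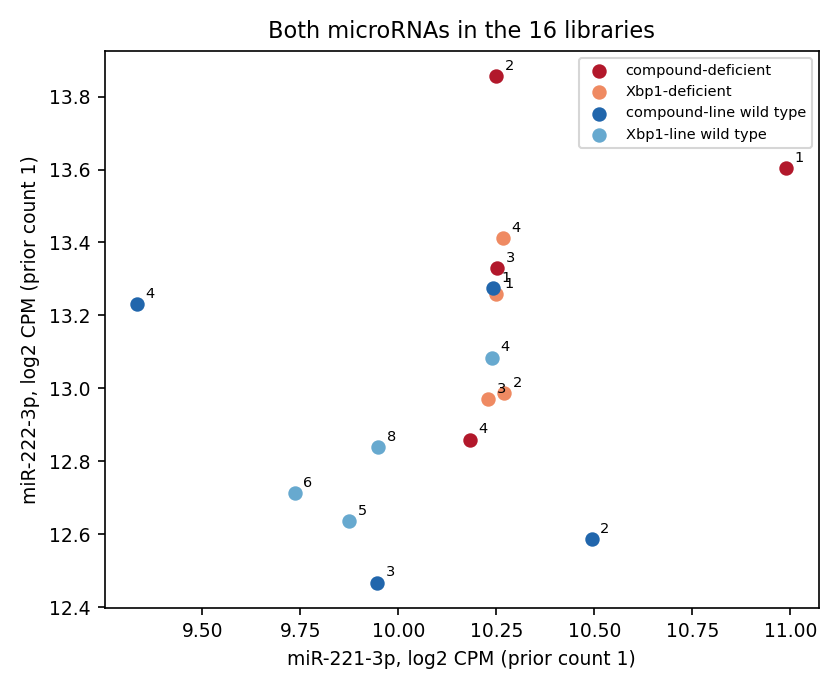
log2 CPM of miR-222-3p (vertical axis) against miR-221-3p (horizontal axis) in the 16 libraries, coloured by group and labelled by replicate number. Compound-line wild-type replicate 2 lies at 10.49 for miR-221-3p and 12.59 for miR-222-3p, and replicate 4 at 9.33 and 13.23. Pearson's r is 0.36 over all 16 libraries.

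In these libraries, other microRNAs had a higher correlation with each member than its partner had. Ranked by Pearson's r of log2 CPM over the 16 libraries, miR-222-3p came at rank 50 of 254 for miR-221-3p, and miR-221-3p at rank 40 of 254 for miR-222-3p. The most similar was MIMAT0005859 for miR-221-3p, with r of 0.83, and MIMAT0003454 for miR-222-3p, with r of 0.87. The median r over all 254 others was 0.03 for miR-221-3p and 0.01 for miR-222-3p. The highest of 254 values is raised by its selection, and how high selection alone would take it was not computed. These values share libraries, depth and scaling and are a description, and the files do not pair the 2 identifiers with names.

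The spread within groups is given as a description, from 4 libraries each and without a test. In Xbp1-deficient cells the coefficient of variation of miR-221-3p was 1.31%, against 15.2% in the Xbp1-line wild type. The SD of log2 CPM in Xbp1-deficient cells, 0.02, was the lowest of the 255 tested microRNAs in that group. Counting error alone would give a coefficient of variation of about 2.91%, more than was seen, so the closeness of these 4 values is no measure of how steady the level was. miR-222-3p in the same libraries varied by 15.1%, against 14.1% in the Xbp1-line wild type. In the compound line both members varied more, by 29.7% for miR-221-3p and 28.0% for miR-222-3p in compound-deficient cells, against 31.7% and 28.6% in the wild type. Library totals were also lower in that line, and their part in this spread was not tested.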

How the data were processed

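The 16 samples are sorted splenic cDC1s, 5000 to 50000 cells each per the labels' protocols, with small RNA libraries from the TruSeq kit, size selected on a Pippin Prep device. Bowtie 1.1.2, limma 3.42.2, FastQC 0.11.3, cutadapt 1.8.1 and the builds GRCm38 and mm10 appear, without roles, in the submitters' processing notes; mismatches, microRNA release and multi-mapping reads do not. The authors deposited raw counts of 853 microRNAs and log2 values of 473; the latter equal, from the values, log2 CPM on TMM-scaled library sizes with 0.5 added to each count. Molecular identifiers are not given, so counts may hold PCR copies. Groups and replicate numbers came from the sample descriptions, and the labels do not say whether replicates were separate mice, so the p-values here reflect the spread of these samples alone and part of it may be technical. Libraries of 1 group differed by more than counting noise (lowest chi-square 18.3 per degree of freedom).

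The counts were tested in edgeR 4.0.16 (R 4.3.3): filterByExpr (count minimum 10), TMM, 1 quasi-likelihood fit of 16 libraries with 4 group means, two-sided F tests, Benjamini-Hochberg adjustment over the 255 microRNAs kept (598 not tested), threshold 0.05. CPM used the TMM-scaled sizes, log2 CPM a prior count of 1, and the count ratio a pseudocount of 0.5 on the log2 scale with exact permutation tests; correlations used 100000 resamples. Alternatives were other scalings, filters, DESeq2 1.42.0, limma 3.58.1 on voom weights or on the deposited log2 values, a depth covariate, other control and library sets, and a replicate block. The 2 members, the lists and the tests were chosen with earlier results of these data known. The naming rule covered the members, their other arms, microRNAs of the same seed, the 5 most similar to each, the neighbours in level, a dendritic cell list and markers of other cell types. As 0 of the 853 identifiers had a name in 2 reference tables, the last lists, the arms and the seed group were not tested, and only the single most similar microRNA of each member is given, by identifier.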

Additional observations from a re-analysis of the deposited data

Results flagged for a closer look

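The level of miR-221-3p in compound-deficient replicate 1, 2033 CPM, was far from the other 3 libraries of its group, which lay between 1162 and 1219 CPM. On the log2 scale its gap to the nearest library was 0.915 of the range of the group, above Dixon's 95% critical value for 4 samples. This was the 1 library singled out among 12 groups of values (both microRNAs and their ratio in 4 groups), and chance gives this for about 1 in 20 groups. This library had 978134 counts, the most of its group, and 1894 of them were miR-221-3p.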

How the results depend on the processing

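Over 106 alternative fits of the members in the 5 comparisons, library omission aside, 4 changed sign and 2 passed. With upper-quartile scaling the difference of the changes was −0.31 for miR-221-3p and −0.22 for miR-222-3p, and compound-deficient against Xbp1-deficient was −0.033 for miR-221-3p. Without the filter the wild types differed by −0.0017 for miR-222-3p. miR-222-3p in compound-deficient against wild-type cells passed without the filter at 0.51 and with all wild types as control at 0.58; over its 12 alternatives the adjusted p was 0.0331 to 0.588. Its mean of both changes passed without the filter at 0.44 and with DESeq2 at 0.45. The cause was not tested.

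With 1 library left out, 96 fits passed in 0 cases and changed sign in 11. The lowest and highest values were −0.24 and 0.21 for the difference of the changes of miR-221-3p and −0.059 and 0.25 for miR-222-3p. For compound-deficient against Xbp1-deficient they were −0.12 and 0.21 (miR-221-3p) and 0.05 and 0.36 (miR-222-3p); between wild types −0.10 and 0.28, and −0.025 and 0.24. In the Xbp1 line they were 0.22 and 0.44, and 0.29 and 0.48; in the compound line 0.08 and 0.54, and 0.31 and 0.62. The mean of both changes ran from 0.20 to 0.43, and from 0.34 to 0.49, where miR-222-3p passed without compound-deficient replicate 4 or compound-line wild-type replicate 4. The log2 ratio difference ran from −0.046 to 0.10 in the Xbp1 line, −0.16 to 0.44 in the compound line, −0.11 to 0.22 between deficient genotypes and −0.32 to 0.28 between wild types. The correlation ran from 0.18 to 0.55, and for deviations from −0.13 to 0.37; with total counts alone the latter was −0.066.

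The labels do not say that replicate numbers pair the samples, and no clear pairing was seen. Correlations of same-numbered deviations were −0.26 to 0.26 between compound-deficient and wild type and −0.07 to 0.10 between deficient genotypes. Correlations of different-numbered deviations covered similar ranges, −0.30 to 0.26 and −0.19 to 0.14. Of the compound-deficient libraries, only replicate 3 correlated best with its own number, and it did so in both comparisons. With 4 libraries per group these correlations cannot decide whether samples were paired. With the replicate block and the compared groups alone, compound-deficient against wild type gave 0.37 for miR-221-3p and 0.48 for miR-222-3p and called 4 microRNAs in all, and against Xbp1-deficient 0.16 and 0.25, calling 19. No such fit was made in the Xbp1 line, whose groups share 1 number.

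Calls over all microRNAs ranged, over alternatives with all libraries, from 3 to 17 in Xbp1-deficient (main 6), 1 to 32 in compound-deficient (15), 0 to 30 between deficient genotypes (19), 0 to 14 between wild types (0) and 0 to 3 for the difference (0). With upper-quartile scaling 3 rose and 21 fell in compound-deficient cells, against 9 and 6 with TMM.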
